A study of Mus musculus with 18 samples.

Results

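The BPI fold-containing genes encode secreted proteins related to the bactericidal/permeability-increasing protein of neutrophils and the lipopolysaccharide-binding protein of plasma. The members described here were 9 mouse genes, taken by symbol from a table of 54532 genes: Bpifa1, Bpifa2, Bpifb1, Bpifb2, Bpifb3, Bpifb4, Bpifb5, Bpifb9a and Bpifb9b. They were chosen by their larynx levels and changes in the same comparisons reported below, so their values are given as a description and carry no test of their own. All 9 had at least 1 count, and 5 (Bpifa1, Bpifb1, Bpifb2, Bpifb5 and Bpifb9a) passed the filter on low counts. The other 4, Bpifa2, Bpifb3, Bpifb4 and Bpifb9b, are described by their raw counts.

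Whole larynges of male C57BL6/J mice, 8 to 9 weeks old, were profiled by mRNA sequencing in 18 libraries, 6 per group. The air group breathed room air, the smoke group was exposed to smoke of 3R4F, a standard research cigarette, and the e-cigarette group to aerosol of JUUL Virginia tobacco devices. All 3 groups spent 1 hour a day, 5 days a week, for 4 weeks in a whole-body inhalation chamber, with room air in it for the controls. The study asked how the larynx transcriptome after each exposure compares with air, and how the exposures compare with each other. Whether a library stands for a single animal is not stated in the labels, so errors and p-values measure the spread between these libraries, which may be partly technical.

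Proteins of this family have 1 or 2 barrel-shaped BPI domains, whose hydrophobic pockets bind lipids and, in some members, bacterial lipopolysaccharide. The short members, named Bpifa, have 1 domain, and the long members, named Bpifb, have 2. Bpifa1, also called SPLUNC1, is secreted by surface epithelium and submucosal glands of the nose, larynx and trachea, lowers the surface tension of airway liquid, limits sodium uptake through the epithelial sodium channel and restrains bacterial growth and biofilms. Bpifb1, also called LPLUNC1, is a product of mucous cells of the airway glands and of goblet cells. Bpifa2, the parotid secretory protein, and Bpifb2 are known as salivary gland products. Bpifb9a is the mouse counterpart of vomeromodulin, a secreted protein of rodent nasal glands, and Bpifb9b is its near copy. In a whole organ such as the larynx, fewer cells of a type and less RNA per cell cannot be told apart.

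The 9 members lay on the forward strand of chromosome 2 between 153875045 and 154320646 in the deposited GRCm38 coordinates, within 446 kb that held 13 protein-coding genes. Bpifb2 (ENSMUSG00000027481, 153875045 to 153895270) stood at the start of the cluster, followed among the members by Bpifb3 (ENSMUSG00000068008), Bpifb4 (ENSMUSG00000074665), Bpifa2 (ENSMUSG00000042459) and Bpifa1 (ENSMUSG00000027483, 154142880 to 154149219). Bpifb1 (ENSMUSG00000027485, 154190818 to 154220369) and Bpifb5 (ENSMUSG00000038572, 154223742 to 154240902) were neighbours with 3.37 kb between them. Bpifb9a (ENSMUSG00000067998, 154257854 to 154271245) and Bpifb9b (ENSMUSG00000067996, 154307227 to 154320646) closed the cluster, 36.0 kb apart. No other annotated gene overlapped a member, while near-identical copies can share reads.

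Bpifb9a and Bpifb9b differed at 13 of 1773 coding bases (99.27% identical, no gaps) in their GENCODE M21 transcripts. The other 35 pairs of members were 55.46% to 66.3% identical over their aligned coding bases. Of the windows of 150 bases in the Bpifb9b coding sequence, 42.67% occurred unchanged in Bpifb9a, as did 69.49% of windows of 50 bases, and the longest identical run was 465 bases. A read from such a stretch fits both genes, so how the counting assigned it decides which gene it was credited to. The 90 coding bases with the most differences are shown because reads over them can tell the copies apart. They are coding bases 52 to 141, at chr2:154260036-154260125 in Bpifb9a and chr2:154309412-154309501 in Bpifb9b, forward strand, GRCm38, with the 3 differing bases in capitals.
Bpifb9a: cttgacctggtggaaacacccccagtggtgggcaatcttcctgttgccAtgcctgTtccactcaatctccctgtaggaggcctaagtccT
Bpifb9b: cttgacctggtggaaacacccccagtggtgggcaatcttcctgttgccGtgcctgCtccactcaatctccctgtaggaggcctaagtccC

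The DNA just upstream of the deposited gene starts was also close between the copies. RefSeq promoter sequence (GRCm38.p6) gave 225 bases at chr2:154257629-154257853 for Bpifb9a and 233 bases at chr2:154306994-154307226 for Bpifb9b. Over 225 aligned bases the copies differed at 12 (94.67% identical), and the Bpifb9b stretch held 8 further bases. Of these, TCCTAAA at its start lay before the first base given for Bpifb9a and was not compared. The remaining further base was a T near the end of the Bpifb9b stretch. Capitals mark the differing bases and the 8 further bases, compared or not. The stretches are shown because both genes had their highest counts in the smoke group, as described below.
Bpifb9a: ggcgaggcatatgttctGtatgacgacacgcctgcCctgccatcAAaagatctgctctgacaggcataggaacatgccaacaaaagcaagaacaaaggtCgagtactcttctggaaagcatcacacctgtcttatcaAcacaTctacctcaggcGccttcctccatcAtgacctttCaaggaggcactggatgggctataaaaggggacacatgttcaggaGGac
Bpifb9b: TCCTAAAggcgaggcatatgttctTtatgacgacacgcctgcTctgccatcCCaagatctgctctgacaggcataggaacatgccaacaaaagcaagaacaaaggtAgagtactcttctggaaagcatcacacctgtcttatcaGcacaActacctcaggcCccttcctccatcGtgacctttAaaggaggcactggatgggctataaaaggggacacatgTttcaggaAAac

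Promoters of all 9 members were found in the RefSeq table, which spans the sequence around each RefSeq gene start and holds 32851 promoters. Each was searched on both strands for 3 motifs that do not share letters at any position found here. The letters TATAAA, the TATA box core, occurred in 13.62% of all promoters and in those of Bpifa1, Bpifb9a and Bpifb9b, where they began 29, 29 and 30 bases before the deposited gene start. The letters GCGTG, the core bound by the aryl hydrocarbon receptor, occurred in 32.39% of all promoters and in those of Bpifb4, Bpifb9a and Bpifb9b. In Bpifb9a and Bpifb9b this match lay on the reverse strand, 199 and 200 bases before the start, read as cacgc in the stretches above. The letters TGACNNNGC, the antioxidant response element core, occurred in 12.39% of all promoters and in those of Bpifb1, Bpifb2, Bpifb3 and Bpifb4. In Bpifb4 the GCGTG and TGACNNNGC matches lay inside the deposited gene, at -2674 and -2689 bases before its start, so downstream of it. All matches to the 3 motifs are descriptions of sequence, and no binding was measured.

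Libraries held 15.6 to 22.5 M counts, and markers of the cells a larynx sample can hold were present at very different levels. The ciliated cell regulator Foxj1, the basal keratin Krt5 and the cartilage proteoglycan Acan were detected in all 18 libraries, with Acan at 6.09 to 255 CPM (counts per 1 M of the TMM-scaled library total). Air libraries 4, 5 and 6 stood apart from air 1, 2 and 3. Their summed level of 21 Gland acini genes was 3323 to 14597 CPM, against 38379 to 50331 CPM in air 1 to 3, 41645 to 54294 CPM after smoke and 41776 to 102312 CPM after e-cigarette aerosol. Their gastric-type lipase Lipf, the most abundant gland gene with lactoferrin (Ltf), was at 623 to 3247 CPM, against 10589 CPM or more in the 12 exposed libraries. The same 3 air libraries were low in cartilage genes (158 to 222 CPM summed, against 493 to 680 CPM in air 1 to 3) and high in ciliated cell genes (812 to 1042 CPM, against 610 to 668 CPM). The summed level of thyroid follicle genes was 146 to 29342 CPM after e-cigarette aerosol, against 57250 to 99016 CPM in air and 58202 to 95684 CPM after smoke. Results that rest on air 4 to 6 are therefore given with and without them.

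Bpifa1 was one of the most abundant transcripts of the larynx. Per kilobase of the deposited gene length, its group level ranked 2 of 22046 protein-coding genes in air, 7 in smoke and 6 in e-cigarette libraries. In air it ranged from 13241 to 18564 CPM with a median of 15270 CPM. After smoke it ranged from 7789 to 11549 CPM with a median of 9688 CPM, and after e-cigarette aerosol from 9912 to 18518 CPM with a median of 12665 CPM. All 6 smoke libraries lay below all 6 air libraries, whereas the e-cigarette libraries spread over both ranges. The 3 highest air libraries were air 4, 5 and 6, at 16374 to 18564 CPM, and air 1, 2 and 3 were at 13241 to 14166 CPM.

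Mean Bpifa1 was 15724 ± 2335 CPM (SD, n = 6) in air, 13353 ± 3399 CPM in e-cigarette and 9452 ± 1331 CPM in smoke libraries. The log2 fold change of smoke versus air was -0.73 (SE 0.15), a 1.66-fold lower level, which passed the threshold of an adjusted p below 0.05 used for a call in the edgeR fit of all genes. Smoke was also called lower than e-cigarette, at -0.50 (SE 0.15), with 5 of 6 smoke libraries below every e-cigarette library and smoke 3 inside the e-cigarette range. E-cigarette versus air was -0.24 (SE 0.15) and was not called, with a 95% interval of -0.54 to 0.07. In order, air and e-cigarette were neighbours that did not differ beyond their spread, and smoke stood below both. Without air 4, 5 and 6 the smoke-versus-air change was -0.56 (SE 0.18) and was no longer called. The smoke-versus-air call was also lost without air 5 (-0.72), air 6 (-0.70), smoke 5 (-0.76) or smoke 6 (-0.70). The smoke-versus-e-cigarette call was lost without smoke 2 (-0.46), smoke 6 (-0.45), e-cigarette 1 (-0.48), e-cigarette 2 (-0.44) or e-cigarette 6 (-0.38).

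Bpifa1 moved with the ciliated cell content of the libraries and, in the opposite direction, with their cartilage content. Over the 18 libraries its log2 level had Pearson's r of 0.72 with the mean log2 level of the Ciliated cells list, and of 0.64 after subtracting group means (n = 18, all libraries sharing 1 count table and scaling). The Ciliated cells list itself summed to 527 to 676 CPM in smoke libraries, against 610 to 1042 CPM in the air group and 729 to 1111 CPM in the e-cigarette group. With the ciliated score as a covariate the smoke-versus-air change of Bpifa1 was -0.40 and the smoke-versus-e-cigarette change -0.01, and neither was called. The e-cigarette group in that fit thus lay below air about as far as the smoke group did. Over 34 alternatives of the analysis the e-cigarette-versus-air change of Bpifa1 ranged from -0.42 to 0.06 and was called in 1. With the Cartilage list Bpifa1 had r of -0.66 in levels and -0.54 with group means subtracted. The smoke-versus-air call was also lost with the cartilage score (-0.48, SE 0.17) and with the gland score (-0.59, SE 0.21). The part of tissue content in the Bpifa1 result was not tested beyond these fits.

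**Figure D1:**
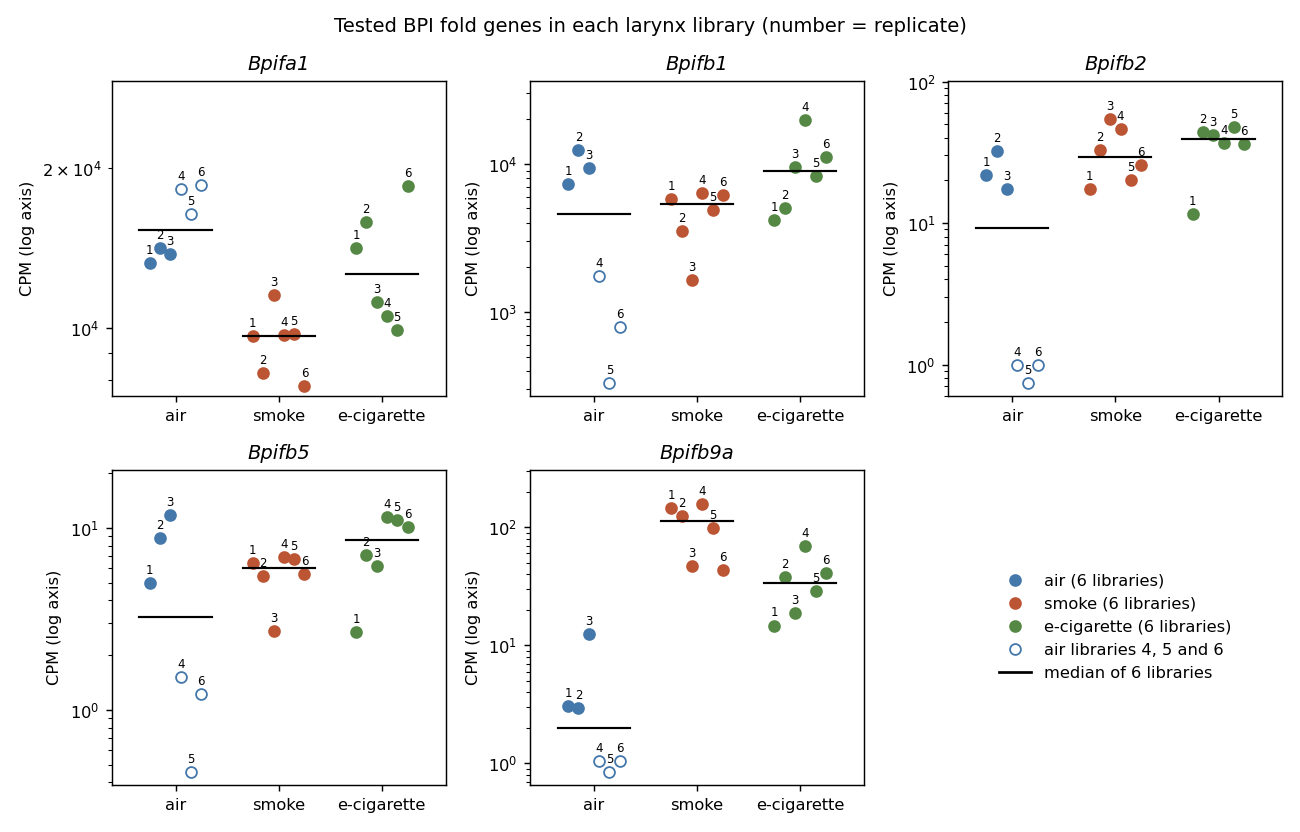
Level of each tested member in every library (CPM on log axes; points are libraries numbered by replicate, black lines are medians of 6 libraries, open circles are air 4, 5 and 6). Bpifa1 in smoke lies between 7789 and 11549 CPM, below all air libraries, Bpifb9a in smoke lies between 43.1 and 158 CPM, above all air libraries, and Bpifb1, Bpifb2 and Bpifb5 are lowest in air 4, 5 and 6.

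Bpifb1 was the second abundant member, and it varied far more between air libraries than Bpifa1 did. Its group level per kilobase ranked 23 of 22046 protein-coding genes in air, 25 in smoke and 21 in e-cigarette libraries. In air it ranged from 331 to 12304 CPM with a median of 4549 CPM. In smoke it ranged from 1653 to 6331 CPM with a median of 5350 CPM, and in e-cigarette libraries from 4143 to 19637 CPM with a median of 8900 CPM. Air 1, 2 and 3 were at 7347 to 12304 CPM and air 4, 5 and 6 at 331 to 1750 CPM, so the air group spanned the whole smoke range. The SD of the air group was nearly as large as its mean, whereas the coefficient of variation of Bpifa1 in air was 14.9%.

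None of the 3 comparisons was called for Bpifb1. The log2 change was -0.17 (SE 0.69, 95% interval -1.52 to 1.18) in smoke versus air and 0.86 (SE 0.69, -0.50 to 2.22) in e-cigarette versus air. Smoke versus e-cigarette was -1.02 (SE 0.70, -2.39 to 0.34). The order of the means was e-cigarette at 9610 ± 5572 CPM, air at 5312 ± 5045 CPM and smoke at 4730 ± 1825 CPM (SD, n = 6), and no neighbours in that order differed beyond their spread. The sign of smoke versus air turned with the choice of air libraries. It was -1.05 (SE 0.45, not called) without air 4, 5 and 6, and 2.29 (SE 0.64, called higher) without air 1, 2 and 3. With the gland score as a covariate it was -1.85 (SE 0.37) in smoke versus air and -1.21 (SE 0.39) in e-cigarette versus air, and both were called lower. The mean log2 level behind that score was itself higher in smoke libraries (5.93 to 6.48) than in air 1 to 3 (5.28 to 5.75). Gland content and exposure therefore cannot be told apart in this fit.

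The balance of the 2 abundant members differed between libraries. Bpifa1 and Bpifb1 together took 1.22% to 1.60% of all counts in smoke libraries, against 1.89% to 2.73% in air and 1.73% to 2.86% after e-cigarette aerosol. The Bpifb1 level per kilobase was a median of 0.139 times that of Bpifa1 in air (0.00864 to 0.371), 0.235 times in smoke (0.0611 to 0.338) and 0.305 times in e-cigarette libraries (0.125 to 0.796). The air median fell between air 1, 2 and 3, at 0.237, 0.371 and 0.290, and air 4, 5 and 6, at 0.0410, 0.00864 and 0.0182. That the air median was below the smoke median therefore rested on air 4, 5 and 6. With the length of 1 annotated transcript in place of the deposited gene length the medians were 0.220, 0.372 and 0.482. Bpifa1 had the higher level per kilobase in all 18 libraries with the deposited lengths, while the highest e-cigarette value with transcript lengths was 1.26.

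**Figure D2:**
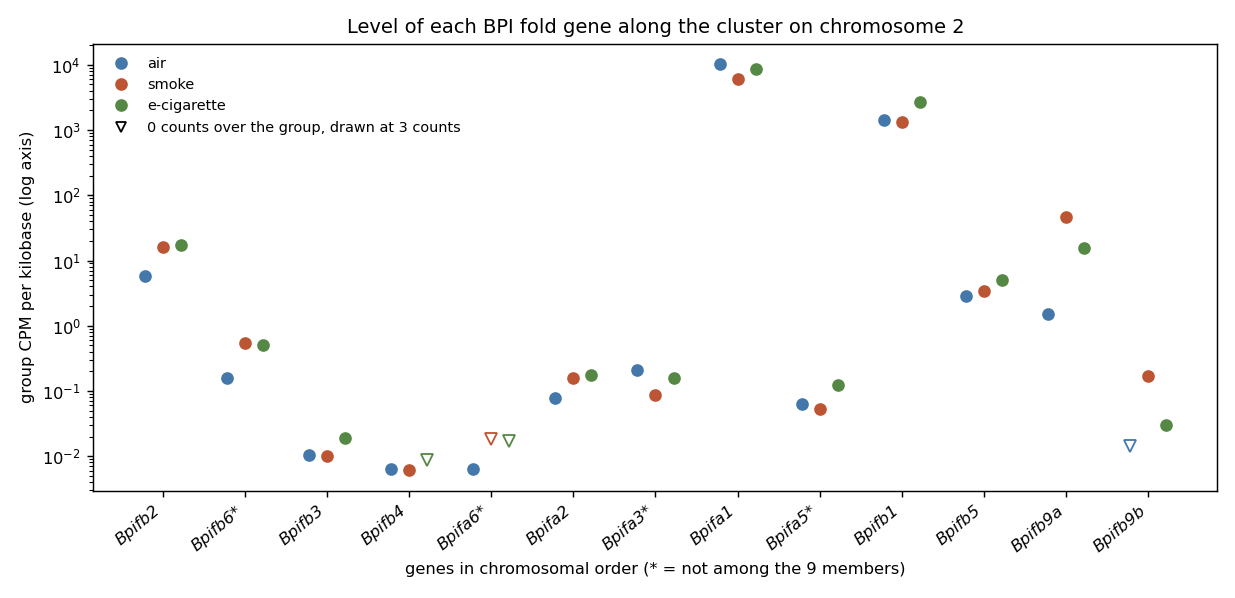
Group level of the 13 BPI fold genes of the chromosome 2 cluster in chromosomal order (counts summed over 6 libraries, CPM per kilobase of deposited gene length, log axis; triangles mark 0 counts, drawn at the level of 3 counts over the group). Bpifa1 and Bpifb1 lie far above the other genes in all 3 groups, and Bpifb9b lies far below its copy Bpifb9a.

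Bpifb2, a salivary-type member, had its lowest levels in air 4, 5 and 6. Air 1, 2 and 3 had 17.5 CPM or more, while air 4, 5 and 6 had 0.740 to 0.994 CPM. Smoke libraries ranged from 17.3 to 54.2 CPM with a median of 29.3 CPM, and e-cigarette libraries from 11.6 to 47.5 CPM with a median of 39.6 CPM. Only 3 of 6 smoke and 5 of 6 e-cigarette libraries lay above every air library. The log2 change was 1.41 (SE 0.74) in smoke versus air and 1.56 (SE 0.74) in e-cigarette versus air, and neither was called. Without air 4, 5 and 6 these were 0.44 (SE 0.43) and 0.60 (SE 0.44), also not called, and in voom with sample quality weights 3.67 (SE 0.86) and 3.53 (SE 0.88), both called. Smoke versus e-cigarette was -0.15 (SE 0.71, 95% interval -1.55 to 1.25). In the order of means, e-cigarette at 36.4 ± 12.9 CPM and smoke at 32.7 ± 14.7 CPM were neighbours, with air at 12.4 ± 13.4 CPM below them (SD, n = 6), and no neighbours differed beyond their spread.

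Bpifb5, the neighbour of Bpifb1, was a minor transcript whose level followed that of Bpifb1 across libraries. Its range was 0.455 to 11.9 CPM with a median of 3.26 CPM in air. Smoke libraries ranged from 2.70 to 6.92 CPM (median 6.00 CPM) and e-cigarette libraries from 2.67 to 11.4 CPM (median 8.63 CPM). The air libraries again split into 4.99 to 11.9 CPM for air 1 to 3 and 0.455 to 1.52 CPM for air 4 to 6. Its log2 changes were 0.23 (SE 0.57) in smoke versus air, 0.76 (SE 0.56) in e-cigarette versus air and -0.52 (SE 0.56) in smoke versus e-cigarette, and none was called. Without air 4, 5 and 6 the first 2 were -0.62 (SE 0.38) and -0.08 (SE 0.39). Over the 18 libraries the log2 levels of Bpifb5 and Bpifb1 had Pearson's r of 0.94, also after subtracting group means.

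Bpifb9a had the largest fold change of the 5 tested members in each of the 3 comparisons. In air it ranged from 0.854 to 12.6 CPM with a median of 1.99 CPM. In smoke it ranged from 43.1 to 158 CPM with a median of 113 CPM, and in e-cigarette libraries from 14.7 to 69.2 CPM with a median of 33.5 CPM. Every smoke and every e-cigarette library lay above every air library, including air 3, which at 12.6 CPM was well above the next air library at 3.07 CPM. The 4 highest smoke libraries (smoke 1, 2, 4 and 5, at 99.5 to 158 CPM) lay above all e-cigarette libraries, and smoke 3 and smoke 6 (47.1 and 43.1 CPM) lay within their range.

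Mean Bpifb9a was 3.59 ± 4.51 CPM in air, 35.1 ± 19.7 CPM in e-cigarette and 103 ± 49.0 CPM in smoke libraries (SD, n = 6). The log2 change was 4.86 (SE 0.67), or 29.1-fold, in smoke versus air and 3.31 (SE 0.64), or 9.92-fold, in e-cigarette versus air, and both were called higher. Smoke versus e-cigarette was 1.55 (SE 0.56, 95% interval 0.45 to 2.65) and was not called after adjustment over all genes. Air was lowest, and the neighbours e-cigarette and smoke overlapped. Without air 3 the smoke-versus-air change was 5.83 and the e-cigarette-versus-air change 4.28, both called, and smoke versus e-cigarette was called at 1.55. Leaving out e-cigarette 4, the highest of its group, also gave a called smoke-versus-e-cigarette difference, at 1.86.

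**Figure D3:**
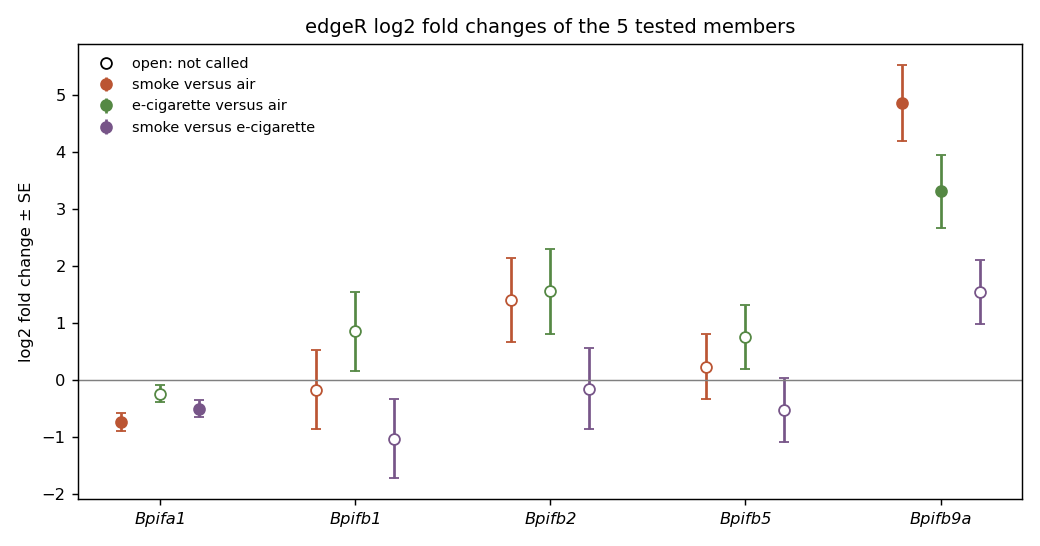
Log2 fold changes of the 5 tested members in the 3 comparisons (points are edgeR estimates, bars are ± 1 SE, filled points are called at an adjusted p below 0.05). Bpifb9a stands at 4.86 in smoke versus air and 3.31 in e-cigarette versus air, Bpifa1 at -0.73 and -0.24, and the bars of Bpifb1, Bpifb2 and Bpifb5 are 0.56 to 0.74 long on each side.

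The Gland acini list as a set moved with Bpifb9a, though not each of its genes did. The 3 air libraries with 38379 to 50331 CPM of gland genes held 2.93 to 12.6 CPM of Bpifb9a, and the 6 smoke libraries with 41645 to 54294 CPM held 43.1 to 158 CPM. These sums, dominated by Lipf and Ltf, overlapped, but the mean log2 level of the list did not, at 5.28 to 5.75 in air 1 to 3 and 5.93 to 6.48 in smoke libraries. Single gland genes went both ways between air 1 to 3 and smoke. Pip (0.782 to 2.50 against 7.82 to 13.5 CPM) and Dcpp1 (319.7 to 469.6 against 512.6 to 937.4 CPM) were higher in smoke without overlap, as were Lpo, Smgc and Cst10. Aqp5 was lower in smoke without overlap, at 393.5 to 538.6 against 220.4 to 322.2 CPM. Bhlha15 (46.5 to 50.2 against 33.9 to 61.5 CPM), Lipf, Ltf and Muc19 overlapped. The part of gland content in the Bpifb9a result was not tested beyond the fits that follow. Without air 4, 5 and 6 the smoke-versus-air change was 4.05 (SE 0.75) and the e-cigarette-versus-air change 2.51 (SE 0.70), both called. With the gland score as a covariate smoke versus air remained called at 3.41, while e-cigarette versus air was 1.61 (SE 0.62) and not called. With the thyroid score as a covariate e-cigarette versus air was 1.67 (SE 0.86), also not called, and with only e-cigarette 1 and 3 kept, the libraries of that group highest in thyroid genes, it was 2.22 (SE 0.81) and not called. Smoke versus e-cigarette with the gland score was 1.80 (SE 0.39) and called, with gland sums at a median of 74572 CPM in e-cigarette and 45722 CPM in smoke libraries and mean log2 levels of the list at 5.75 to 7.00 and 5.93 to 6.48.

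**Figure D4:**
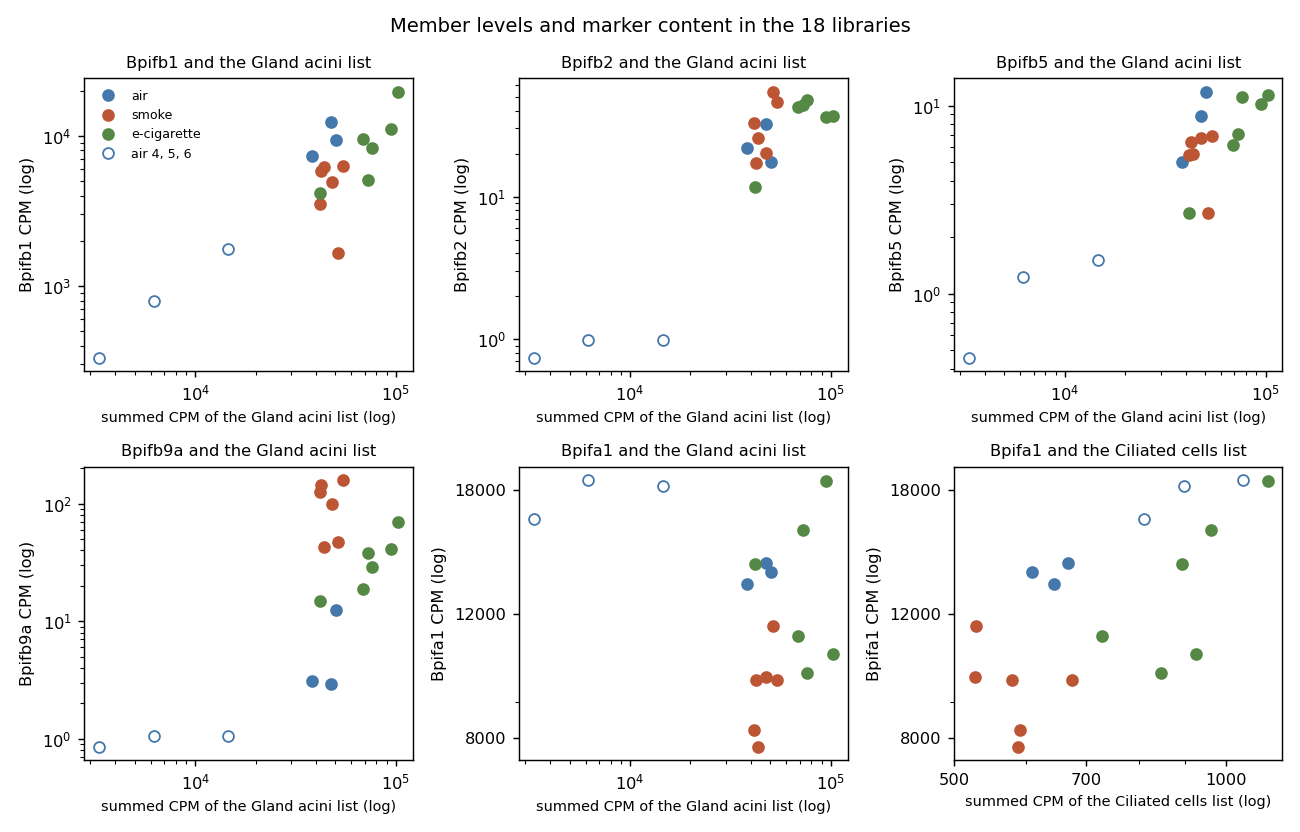
Levels of tested members against the summed level of the Gland acini or Ciliated cells list (both axes in CPM, log scales; each point is 1 of 18 libraries, open circles are air 4, 5 and 6). Air 4, 5 and 6 lie at the lower left for Bpifb1, Bpifb2, Bpifb5 and Bpifb9a, and the smoke libraries lie above air 1, 2 and 3 for Bpifb9a at overlapping gland sums, though the list's mean log2 level was higher in smoke (5.93 to 6.48) than in air 1 to 3 (5.28 to 5.75).

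Bpifb9b, the near copy, was counted in exposed libraries only and at a small part of the Bpifb9a level. It had 0 counts in all 6 air libraries, 37 counts over the smoke group and 7 over the e-cigarette group. The smoke counts came from 4 libraries, with 21 in smoke 1 and 11 in smoke 4, and 5 of the 7 e-cigarette counts were in e-cigarette 4. Set against a floor of 3 counts over the air group, the smoke level was 11.9 times and the e-cigarette level 2.13 times that floor. These ratios leave out the error of the exposed counts and the spread between libraries, so they are not lower bounds. The smoke level was 5.58 times the e-cigarette level (95% exact interval 2.45 to 14.8, counting error only). Of the reads counted for the pair, Bpifb9b took 0.338% in smoke (37 of 10955, exact 95% interval 0.238% to 0.465%) and 0.178% in e-cigarette libraries (7 of 3925, 0.0717% to 0.367%). In air it took 0 of 349, which allows a share of up to 0.860% by the limit of 3 counts, or 1.05% by the upper bound of the exact 95% interval. The air depth could not show a share as small as those of the exposed groups. These intervals pool the libraries of a group and cover counting error only. Single smoke libraries lay outside theirs, with 21 of 2291 (0.917%) in smoke 1 and 0 of 2296 in smoke 2. Adding the counts of both copies into 1 gene gave 4.87 in smoke versus air, 3.31 in e-cigarette versus air and 1.55 in smoke versus e-cigarette.

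Bpifa2, the parotid secretory protein, was near the limit of detection. It had 16 counts over air, 33 over smoke and 39 over e-cigarette libraries, with 0 to 14 counts in any library. The smoke level was 1.99 times that of air (95% exact interval 1.06 to 3.87) and the e-cigarette level 2.23 times (1.22 to 4.27), with intervals for counting error only and not for the spread between libraries. Of the 16 air counts, 13 fell in air 1, 2 and 3 and 3 in air 4, 5 and 6. Bpifb3 had 2, 2 and 4 counts and Bpifb4 had 2, 2 and 0 counts in the 3 groups, in the same order. At this depth no difference in either could be detected.

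Read over the whole family, 2 of 5 tested members were called in smoke versus air, Bpifb9a higher and Bpifa1 lower, where 1.59% of the 17537 tested genes were called. The same 2 members had groups that did not overlap, as did 2.43% of genes. In e-cigarette versus air 1 of 5 was called, Bpifb9a, where 25.1% of genes were called, and it was the 1 member without overlap, as were 10.5% of genes. In smoke versus e-cigarette 1 of 5 was called, Bpifa1, where 16.5% of genes were called, and 0 of 5 members had groups without overlap, against 9.37% of genes. Since the members were selected on these same comparisons, nothing is read from these shares. The median log2 change of the 5 members was 0.23 in smoke versus air, 0.86 in e-cigarette versus air and -0.50 in smoke versus e-cigarette, beside 0.01, 0.01 and -0.01 over all tested genes. The comparisons with air share the 6 air libraries, so the values of a member in both are not independent.

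**Figure D5:**
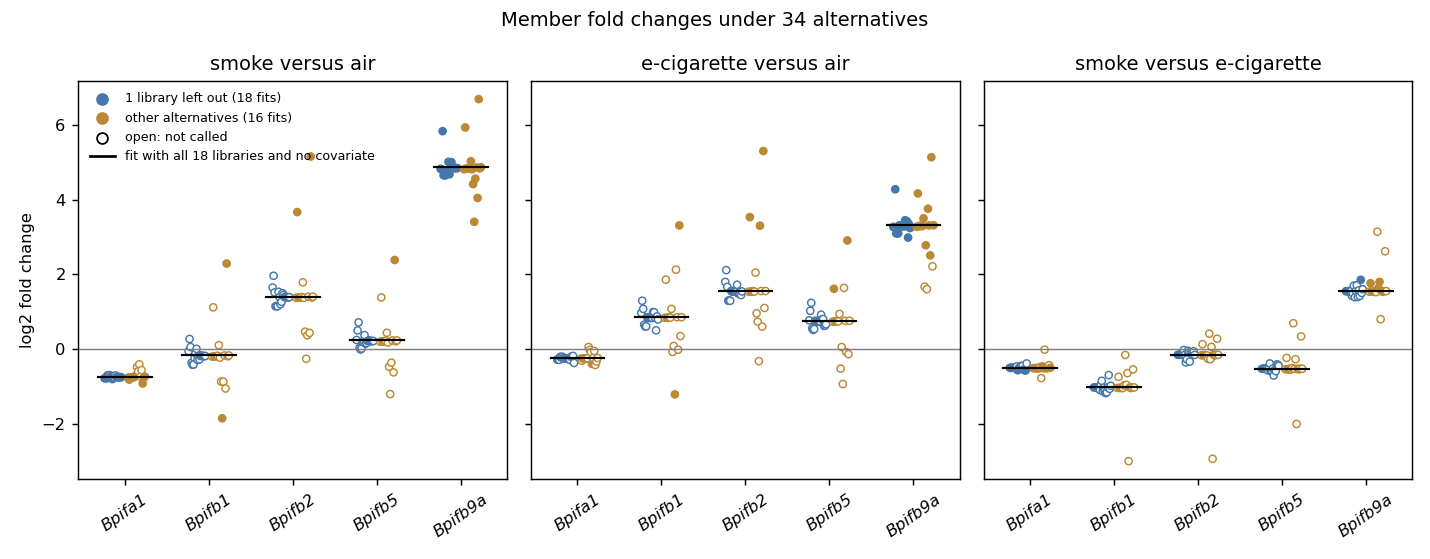
Log2 fold changes of the tested members under 34 alternatives of the analysis (blue points leave out 1 library, brown points are the 16 other alternatives, open points were not called, black lines are the reported values). Bpifb9a lies above 0 in all 34 in each comparison and Bpifa1 below 0 in all 34 for smoke versus air, and Bpifb1, Bpifb2 and Bpifb5 have points on both sides of 0, except Bpifb1 in smoke versus e-cigarette, which lies below 0 in all 34.

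Among 8 relatives outside the 9 members, none of the 4 that could be tested was called in any comparison. Bpifb6, the cluster neighbour of Bpifb2, followed the split of the air group, with 27 counts in air 1, 2 and 3 and 0 in air 4, 5 and 6, and with 96 over smoke and 94 over e-cigarette libraries. Its log2 change was 1.74 (SE 0.71) in smoke versus air and 1.65 (SE 0.71) in e-cigarette versus air. Bpifc, a relative on chromosome 10, had log2 differences of 0.25 (SE 0.56) and 1.11 (SE 0.56), and was at 6.55 to 7.37 CPM in air 4, 5 and 6 against 0.920 to 3.73 CPM in air 1, 2 and 3. The lipopolysaccharide-binding protein gene Lbp had differences of -0.12 (SE 0.13) and 0.10 (SE 0.13), and the phospholipid transfer protein gene Pltp of 0.13 (SE 0.20) and -0.09 (SE 0.20). In smoke versus e-cigarette these 4 were between -0.85 for Bpifc and 0.22 for Pltp. The other 4 were too low to test, with 57 counts in all for Bpifa3, 28 for Bpifa5, 1 for Bpifa6 and 4 for Bpi, the neutrophil gene, which had 0 counts in both exposed groups.

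Marker genes of the cell types a larynx sample can hold were counted in 7 further lists. In smoke versus air 3 of 19 tested Gland acini genes were called higher and none lower, led by the secreted cystatin Cst10 (log2 change 5.64, SE 0.79, edgeR with Benjamini-Hochberg adjusted p = 0.00533), the prolactin-induced protein Pip (3.17, adjusted p = 0.0239) and the salivary mucin-like Smgc (2.22, adjusted p = 0.0251). The list's median change was 1.34, with 0.01 over all genes, of which 1.59% were called. All 3 genes had non-overlapping groups, as did Bpifb9a, the uncalled gland genes Lpo and Dcpp1, and 2.43% of all tested genes. Cst10 was also higher in smoke than in e-cigarette libraries, at 2.45 (SE 0.59, edgeR adjusted p = 0.00917), the 1 of 19 gland genes called there, where Bpifb9a was not called and 16.5% of all tested genes were. After e-cigarette aerosol 12 of 19 gland genes were called higher than in air and none lower, among them Pip (3.84), Smgc (2.35) and the amylase Amy1 (0.41), with a median of 1.63. Of all tested genes 25.1% were called in that comparison.

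The genes called in the epithelial lists were lower after smoke, as Bpifa1 was. Of 24 Airway secretory cells genes 0 were called higher and 2 lower in smoke versus air, the surfactant collectins Sftpa1 (-1.60, SE 0.30, edgeR adjusted p = 0.0136) and Sftpd (-0.84, SE 0.19, edgeR adjusted p = 0.0345), with a list median of 0.04. Of 19 Ciliated cells genes 0 were called higher and 3 lower, Foxj1 (-0.61), Cfap52 (-0.54) and Spag6l (-0.59), with a list median of -0.49. Over all tested genes 1.59% were called in this comparison. In smoke versus e-cigarette 16 of 19 ciliated genes and 5 of 24 secretory genes were called lower and none higher, with medians of -0.74 and -0.41. There 16.5% of all tested genes were called, and the secretory count was near that share. Against air, 7 of 24 secretory genes were called higher after e-cigarette aerosol, such as the gel-forming mucin Muc5ac (1.22), Scgb3a1 (0.88) and Agr2 (0.92), and 1 lower, and 2 of 19 ciliated genes were called higher. With 25.1% of all tested genes called there, neither count is read as a result about the cell type.

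The remaining lists cover other tissue in the sample. In smoke versus air none of 14 Squamous and basal epithelium, 13 Thyroid follicles, 16 Cartilage and 13 Skeletal muscle genes was called, with medians of 0.05, -0.30, 1.04 and 0.20. For e-cigarette versus air 3 of 14 squamous, 1 of 13 thyroid, 5 of 16 cartilage and 9 of 13 muscle genes were called higher, and 10 thyroid genes and 1 cartilage gene lower, with a thyroid median of -2.88. Over all tested genes 25.1% were called there. In smoke versus e-cigarette, where 16.5% of all tested genes were called, 10 thyroid genes and 1 cartilage gene were called higher, and 2 squamous and 5 muscle genes lower. The part of these differences in tissue content in the values of the members was not tested beyond the covariate fits above.

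The genes most like each member over the 18 libraries were taken by Pearson's r of log2 levels, among 14454 protein-coding candidates whose mean level was 1 CPM or more. These are descriptions in which all points share the groups and the tissue content above. For Bpifa1 they were Sftpa1 (0.88), Sftpd (0.87), Cfap52 (0.86), Foxj1 (0.84) and Ankrd45 (0.83). For Bpifb1 they were B4galnt2, Pax1, Ssbp3, Svopl and Pycr1 (0.92 to 0.94). For Bpifb2 they included Crisp3, Lipf, Matn1 and Mcoln2 (0.94 to 0.95). For Bpifb9a they were Slc38a5 (0.90), Adcy8 (0.88), Cst10 (0.87), Pip (0.87) and Cd276 (0.85).

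With the group means subtracted, the most like genes changed for most members. Bpifb1 kept Svopl (0.96), B4galnt2 (0.95) and Pax1 (0.94) among its 5, with Hhatl and 2310057J18Rik. Bpifb2 kept Lipf (0.92), beside Myl9, Lyz1, Acta2 and Cnn1. Bpifa1 had Lzts3 (0.83), Kcnmb2, Mfsd1, Itpka and Ak7, and Bpifb9a had Pgm1 (0.91), Kcne3, Krt17, Tbl3 and Dusp6, with none of their earlier 5. The Gland acini score had r of 0.84 with Bpifb1, 0.92 with Bpifb2, 0.86 with Bpifb5 and 0.83 with Bpifb9a in levels, and of 0.92, 0.85, 0.89 and 0.74 within groups. Bpifa1 had r of -0.53 and -0.26 with that score, and was the 1 tested member negatively related to each of the other 4 (r of -0.73 to -0.37).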

How the data were processed

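Whole-larynx RNA was sequenced in 18 libraries (6 per group) made, per the labels' protocols, from 1 µg of total RNA with an NEBNext Ultra kit, which does not mark strand. The deposited table holds raw counts per gene; per the submitters' processing notes, the authors worked with featureCounts 1.5.0-p3 and STAR, whose version is not listed, and the builds are listed as GRCm38 and mm10. The sources used here do not give the annotation release, the strand setting or the handling of reads that fit several genes. Each column matched 1 sample title.

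Genes were filtered with filterByExpr (minimum count 10, minimum total 15), which left 17537 of 54532, and fitted in 1 model of 3 groups in edgeR 4.0.16 (TMM, robust quasi-likelihood F test, R 4.3.3). Benjamini-Hochberg adjustment covered all tested genes, and a call means an adjusted p below 0.05. CPM are counts over TMM-scaled library sizes. SE derive from the F statistic. The step was checked on simulated data. For the 45 pairs of libraries within a group, chi-square over its degrees of freedom was 16.8 to 149, more than counting noise gives. Depth was lowest in air, at 15.6 to 17.1 M counts, with 15.9 to 20.3 M after smoke and 16.7 to 22.5 M after e-cigarette aerosol. Intervals and floors (3 counts) cover counting error only.

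The members and the 8 gene lists (129 symbols, 128 found, 122 tested) were chosen with earlier results of these data known. Named were all 9 members, every gene of the BPI relatives list, up to 3 called genes with the smallest p per list and comparison (of which the text leaves out part), and for members with a group mean of at least 10 CPM the 5 most like genes by r (1 of them is not reported here). Marker genes given for tissue content (Acan, Aqp5, Bhlha15, Dcpp1, Krt5, Lipf, Lpo, Ltf, Muc19) were chosen after their values were seen. Alternatives were DESeq2 1.42.0, limma 3.58.1 (voom with sample quality weights), other scalings, no filter, fits of 2 groups, a block for replicate number, 4 tissue covariates, a threshold of 0.01, sets of libraries left out, summed Bpifb9 copies, and each library left out in turn.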

Additional observations from a re-analysis of the deposited data

Results flagged for a closer look

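In 3 of 15 groups of 6 libraries tested, counting each tested member in each exposure, 1 library lay apart from the other 5 by more than Dixon's 95% limit allows (a gap of over 0.625 of the range). Chance alone marks about 1 group in 20. Bpifb9a in air 3 was at 12.6 CPM, with the next air library at 3.07 CPM. Bpifb2 in e-cigarette 1 was at 11.6 CPM, the lowest of a group whose median was 39.6 CPM, and e-cigarette 1 was also the lowest of its group in Bpifb1, Bpifb5 and Bpifb9a. Bpifb5 in smoke 3 was at 2.70 CPM, the lowest of a group whose median was 6.00 CPM, and smoke 3 was also the lowest in Bpifb1 and the highest in Bpifa1 and Bpifb2 of the smoke group.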

How the results depend on the processing

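Each value was recomputed under 34 alternatives, 18 of which left out 1 library. Bpifb9a stayed higher in smoke than in air in 34 of 34, from 3.41 to 6.69 on the log2 scale, and was called in each. In e-cigarette versus air it was called in 31 of 34 (1.61 to 5.13), and in smoke versus e-cigarette in 8 of 34 (0.80 to 3.14). Bpifa1 was lower in smoke than in air in 34 of 34 and called in 24 (-0.92 to -0.40), and lower in smoke than in e-cigarette in 34 and called in 24 (-0.77 to -0.01). The cause of changes between settings was not tested.

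The sign of Bpifb1 in smoke versus air turned with voom (1.12), the replicate block (0.11), air 1 to 3 left out (2.29), air 2 left out (0.27), air 3 left out (0.059) and smoke 3 left out (0.0092), and ranged from -0.42 to 0.27 without 1 library. In e-cigarette versus air it turned with the thyroid score (-0.072), the gland score (-1.21, called) and air 4 to 6 left out (-0.013). Bpifb2 turned with the gland score (-0.26 and -0.32 against air for smoke and e-cigarette, 0.062 between exposures), and between exposures also with voom (0.13), the thyroid score (0.42) and e-cigarette 2, 4, 5 and 6 left out (0.28). Bpifb5 in smoke versus air turned with the cartilage (-0.47), gland (-1.20) and ciliated scores (-0.36), air 4 to 6 left out (-0.62) and air 5 left out (-0.0073), and ranged from -0.0073 to 0.72 without 1 library. In e-cigarette versus air it turned with the thyroid (-0.52) and gland scores (-0.93), air 4 to 6 left out (-0.077) and e-cigarette 2, 4, 5 and 6 left out (-0.13), and between exposures with the thyroid score (0.70) and those 4 left out (0.34). Bpifa1 in e-cigarette versus air turned with the thyroid score (0.059).

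In smoke versus air 1 member was called with the replicate block, the cartilage or ciliated score, the threshold of 0.01 or air 4 to 6 left out, 5 with air 1 to 3 left out, and 1 to 2 without 1 library. With the gland score the count was 2, but Bpifa1 lost its call (-0.59) and Bpifb1 gained one (-1.85), and voom called 3, with Bpifb2 (3.67) beside Bpifa1 and Bpifb9a. In e-cigarette versus air 3 were called with voom or the ciliated score, 4 with air 1 to 3 left out, and 0 with the thyroid score (edgeR, 0 at an unadjusted p below 0.05) or with e-cigarette 2, 4, 5 and 6 left out (edgeR, 1 at an unadjusted p below 0.05). In smoke versus e-cigarette 2 were called with voom, fits of 2 groups, the cartilage or gland score, or either air set left out. In that comparison 0 were called in edgeR with the replicate block, the thyroid score, the threshold of 0.01 or e-cigarette 2, 4, 5 and 6 left out (2 each at an unadjusted p below 0.05) or the ciliated score (3), and 0 to 2 without 1 library.

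Over all genes, smoke versus air gave 279 calls, and 970 with DESeq2, 1114 with voom, 184 without the filter, 109 from 2 groups, 39 with the replicate block, 40, 587 and 141 with the cartilage, gland and ciliated scores, 25 at 0.01, 451 without air 4 to 6, 2198 without air 1 to 3 and 163 without the 4 e-cigarette libraries. Leaving out 1 library gave 50 (air 5) to 562 (air 2). E-cigarette versus air gave 4406 calls, and 14 with the thyroid score, 2466 at 0.01 and 688 without the 4 e-cigarette libraries. Smoke versus e-cigarette gave 2897, and 599 with the ciliated score, 1324 at 0.01, 147 without the 4 e-cigarette libraries and 0 with the thyroid score (edgeR, 1399 at an unadjusted p below 0.05).

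Replicate numbers are shared between groups, but the labels do not say that they mark a shared animal, day or batch. Same-numbered libraries had correlations of their deviations of -0.45 to 0.16 over 18 pairs, 3 of them over 0.1 and 1 the best match, so the numbers were not taken to pair libraries. Counts for Bpifa2, Bpifb3, Bpifb4 and Bpifb9b are too few at this depth for a test across libraries.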
